A study of Mus musculus with 4 samples.

Results

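DNA methylation writers and erasers were followed in HFSCs, cells cultured from mouse hair follicles, after 10 passages (10p-HFSCs) and after 48 passages (48p-HFSCs). The 10 genes, chosen by their known roles, were Dnmt1, Dnmt3a, Dnmt3b, Dnmt3l, Uhrf1, Hells, Tet1, Tet2, Tet3 and Tdg, and all were found among the 24346 gene symbols of the files. The largest difference among those tested was in Dnmt3a, which fell from FPKM values of 3.14 and 2.44 in 10p-HFSCs to 0.0249 and 0.0120 in 48p-HFSCs. Hells also fell, with a difference just past the threshold. Dnmt1, the most abundant methyltransferase, had overlapping values in the 2 groups, and Dnmt3b had higher values in 48p-HFSCs without passing the test.

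Both groups were cells of the C3H/HeN strain, with 2 libraries each. The study sorted CD49f- and CD34-positive cells from dorsal skin of 4-week-old mice and passaged them weekly in the serum-free medium M-CnT, and passage number is what the labels give as the difference between the groups. Values are FPKM, read numbers divided by transcript length and by the mapped reads of the library, from polyadenylated RNA. The sources do not state whether replicates came from separate sorts or cultures, so p-values measure the spread between these libraries, which may be technical. The comparison asks which genes differ between early and late culture.

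In mammals, methyl groups on cytosines of CpG pairs are placed on new sites by DNMT3A and DNMT3B and are copied to the daughter strand after replication by DNMT1, which UHRF1 guides to hemimethylated DNA. TET enzymes oxidise methylcytosine, and TDG excises oxidised products so that base excision repair can restore cytosine. In the epidermis, DNMT1 and UHRF1 are known for keeping progenitor cells in a proliferating state, and DNMT3A for acting at enhancers of epidermal stem cells.

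The 4 libraries were not equal. Summed FPKM values were 581516 and 719012 in 10p-HFSCs, against 666018 and 1414953 in 48p-HFSCs, and relative depth, estimated from the most common ratio between low values, was lowest in replicate 2 of 48p-HFSCs, at 46.7% of replicate 1 of 10p-HFSCs. Absolute depth is unknown, so no counting interval is given. The 48p replicates differed by at least 2-fold (log2(FPKM + 1) scale) in 1871 of 11018 genes and the 10p replicates in 151. The keratin genes Krt5 and Krt14 had FPKM values between 1217 and 8156 in every library. Cd34, which encodes the surface protein used for the sort, lay between 0.0925 and 0.234, and Lhx2, a transcription factor of follicle stem cells, was at most 0.0241, so that the RNA of these 2 markers was close to absent. The other follicle keratinocyte markers were expressed in every library. Itga6, which encodes CD49f of the sort, rose and Sox9 fell, with ranges of 20.8 to 101 and 8.31 to 45.6 over the 4 libraries. Krt15 (18.8 to 425) and Trp63 (42.0 to 124) were not called. The paper's own assays differ from these values. It reports most cells of both groups as CD34-positive by flow cytometry. By qRT-PCR it reports Cd34 as maintained, and Lhx2 and Sox9 as increased in 48p-HFSCs. The reason for the difference was not tested. Of 8 fibroblast markers, Vim and Col1a2 fell, and the summed FPKM of the list went from 353 and 388 in 10p-HFSCs to 2.50 and 3.32 in 48p-HFSCs. Vim and Col1a2 made up nearly all of the early sums. The other 6 markers stayed under an FPKM of 1 in every library, with Thy1, Dcn and Lum listed at 0 throughout. Of 5 leukocyte markers, Cd74 and Lyz2 rose and the sums went from 0.641 and 0.694 to 64.3 and 104. Cd74 made up nearly all of the late sums, while Cd3e and Tyrobp were at 0 throughout and Ptprc was at most 0.0711. Cd74 and Lyz2 reached the FPKM of 1 needed for testing only in 48p-HFSCs, and Col1a2 only in 10p-HFSCs. Each of them could thus be called only in the direction found. Sums of 5 melanocyte markers were 0.486 and 0.640 in 10p-HFSCs, against 2.15 and 10.8 in 48p-HFSCs, with Dct and Sox10 at 0, and those of 3 endothelial markers were 2.38 and 2.26, against 1.03 and 0.172, with 0 genes of either list called. Tyr made up most of the late melanocyte sums, and Pecam1 nearly all of the endothelial ones. The part of these shifts in the results that follow was not tested. In bulk RNA, fewer cells of a type and less RNA per cell cannot be told apart.

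The fit covered each gene that reached an FPKM of 1 in 2 or more libraries, tested on the log2(FPKM + 1) scale with limma. A gene was called at a Benjamini-Hochberg adjusted p under 0.05 over all 11018 genes if the log2 difference was also 1 or more in size. On this scale, differences of low genes are understated. Of all tested genes, 9.15% were called lower and 10.8% higher in 48p-HFSCs, and 54.1% of calls were increases, a share of 40.6% when libraries were rescaled to the same FPKM sum. An exact two-sided permutation test of 2 libraries against 2 cannot give a p below 0.333. Of the 10 writers and erasers, 7 were tested. Dnmt3a and Hells were called lower and none was called higher, while 4 of the 7 had an unadjusted p under 0.05, as had 4118 of all tested genes. Both 48p libraries lay below both 10p libraries for Dnmt3a, Uhrf1, Hells, Tet3 and Tdg, an order found in 34.3% of all tested genes, and above them for Dnmt3b, an order found in 31.7%. The median log2 difference was -1.28 over the 7 genes and -0.03 over all tested genes. Dnmt3a entered the test through its 10p values alone, so that a decrease was required of it, and the counts are given as a description.

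**Figure D1:**
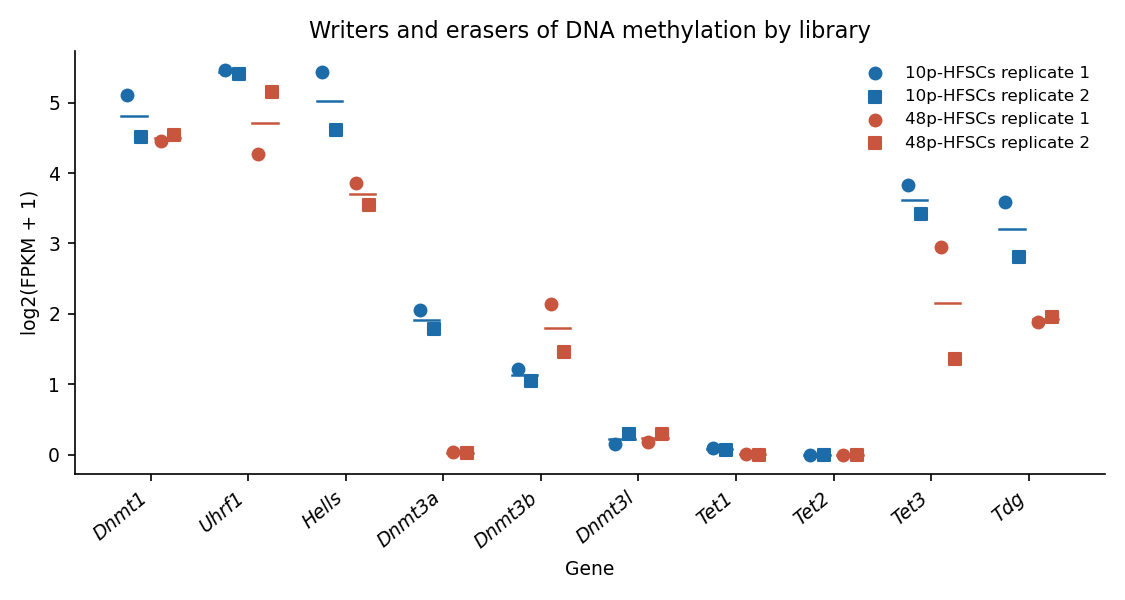
FPKM of the 10 writers and erasers in each library, as log2(FPKM + 1) on the vertical axis and the gene on the horizontal axis. Points are single libraries (circles for replicate 1, squares for replicate 2, blue for 10p-HFSCs, red for 48p-HFSCs) and short lines are group means; Dnmt3a was at 0.0249 and 0.0120 FPKM in the 48p libraries, while Dnmt3b was the only gene with both 48p points above both 10p points.

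Of the de novo methyltransferases, which methylate CpG pairs on both strands without a template, Dnmt3a changed most. Its FPKM was 2.79 ± 0.50 (SD, n = 2) early and 0.0184 ± 0.0091 (SD, n = 2) late, with a ratio of means of 151. The log2 difference was -1.89 (standard error 0.23, limma adjusted p = 0.0046), and the groups were far apart relative to either pair of replicates. Without the filter on low values it was called as well (limma adjusted p = 0.011). By rank, Dnmt3a moved from percentiles 63.1 and 61.6 of all gene symbols to 40.9 and 44.4, a comparison that no scaling factor of a library can change. The late percentiles lie just above the symbols listed at 0, which numbered 9450 and 10766 of 24346 in the 48p libraries. The read numbers behind values this close to 0 are unknown, so the ratio of 151 carries an unknown counting error.

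Dnmt3b (GRCm38, chr2:153649450-153687730, forward strand), the other de novo enzyme, had higher values in both 48p libraries. Its FPKM was 1.33 and 1.07 in 10p-HFSCs, against 3.41 and 1.76 in 48p-HFSCs. The 48p values did not overlap those of 10p-HFSCs, but the difference of 0.67 on the log2(FPKM + 1) scale was not called (standard error 0.31, limma adjusted p = 0.18). Without replicate 2 of 48p-HFSCs it was 1.01, and without replicate 1 it was 0.33. With 1 library left in a group, the spread comes from the other pair alone, so only differences are given. Dnmt3a made up 70.4% and 69.5% of the summed FPKM of Dnmt3a and Dnmt3b in 10p-HFSCs, against 0.723% and 0.680% in 48p-HFSCs. The late shares rest on Dnmt3a values close to 0. The sum itself was 4.47 and 3.51 in 10p-HFSCs, against 3.44 and 1.77 in 48p-HFSCs. Dnmt3l (chr10:78041947-78063622, forward strand), a cofactor of de novo methylation without catalytic activity that is known from germ cells, lay between 0.106 and 0.228 in all 4 libraries, with overlapping groups, and was not tested.

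The deposited values are per gene symbol and do not separate the transcripts of Dnmt3a. The gene lies on the forward strand of chromosome 12 of GRCm38 (mm10), from 3806007 to 3914443 in GENCODE M21, and RefSeq gives it starts at 3806980 and 3807160 and a start at 3891744 inside the gene, from which a shorter isoform is known to be transcribed. The windows around the start at 3807160 and around the internal start, with 250 bases before and 50 bases from each start (RefSeq, GRCm38.p6, forward strand), are shown because their CpG pairs, in capitals, are the substrate of the enzyme that the gene encodes.
Dnmt3a chr12:3806910-3807209: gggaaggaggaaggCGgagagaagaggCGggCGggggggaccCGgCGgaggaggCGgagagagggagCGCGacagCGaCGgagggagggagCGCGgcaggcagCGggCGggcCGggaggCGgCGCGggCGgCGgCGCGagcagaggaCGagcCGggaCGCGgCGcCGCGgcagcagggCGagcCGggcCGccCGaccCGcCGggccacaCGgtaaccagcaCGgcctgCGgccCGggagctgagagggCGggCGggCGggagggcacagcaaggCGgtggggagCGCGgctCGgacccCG
Dnmt3a chr12:3891494-3891793: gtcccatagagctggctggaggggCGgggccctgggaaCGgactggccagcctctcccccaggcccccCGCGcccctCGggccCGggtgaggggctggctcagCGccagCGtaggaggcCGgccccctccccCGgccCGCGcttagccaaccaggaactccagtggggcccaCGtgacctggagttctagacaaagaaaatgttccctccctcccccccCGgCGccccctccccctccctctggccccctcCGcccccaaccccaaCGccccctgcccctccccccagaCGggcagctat
The upstream window held 47 CpG pairs, at percentile 98.7 of 32851 promoter windows of this length, whose median was 7, and the internal window held 18. The Dnmt3b window held 30. These are counts of letters, and methylation was not measured.

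Of the tested genes around Dnmt3a none was called, in a window chosen after its values were seen. Of 23 genes with an FPKM value within 1 Mb of either end, 14 were tested and 0 were called. Over all 11018 tested genes, 9.15% were called lower and 10.8% higher, so few calls would be looked for among 14. The log2 differences of the 14 ran from -1.22 for Itsn2 to 0.67 for Rab10 with a median of -0.33. By limma, 4 of the 14 had an unadjusted p under 0.05, as had 4118 of all 11018 tested genes. The lowest limma adjusted p, 0.051, was that of Rab10os. Dtnb, the nearest tested gene at 24.2 kb upstream, had FPKM values of 28.3 and 32.8 in 10p-HFSCs, against 18.7 and 35.0 in 48p-HFSCs, with overlapping groups. The next tested gene on the other side, Dnajc27, lay 168 kb downstream and had 1.92 and 2.13 against 1.40 and 1.76. An antisense gene, Dnmt3aos, shares 133 exon bases with Dnmt3a and was listed at 0 in all 4 libraries. Of the 10178 genes that reached an FPKM of 1 in both 10p libraries, 154 (1.51%) were at 0.05 or less in both 48p libraries, and Dnmt3a was the only writer or eraser among them.

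**Figure D2:**
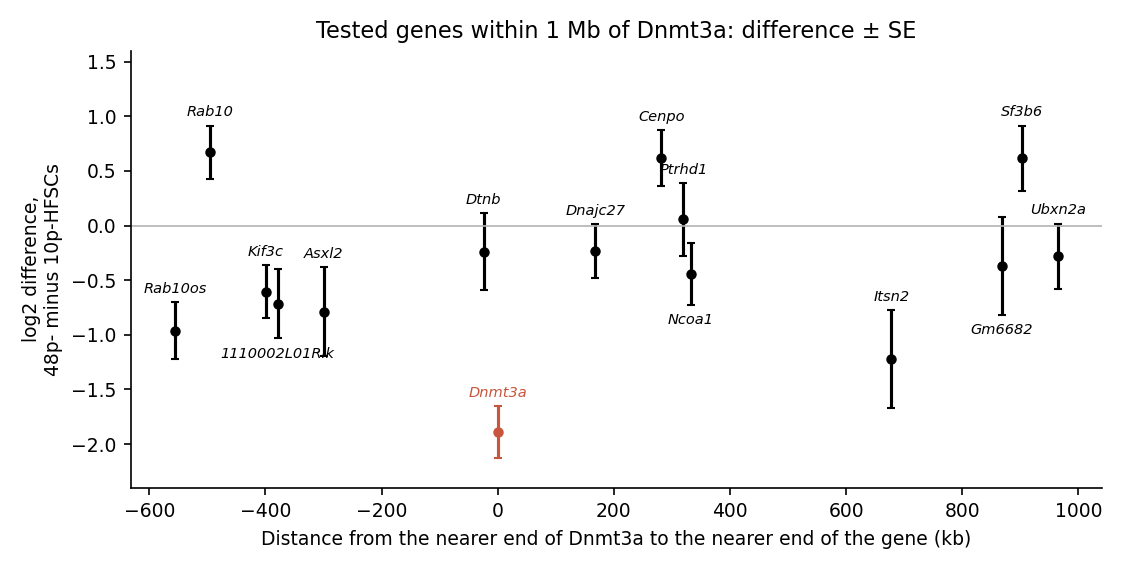
Log2 difference of 48p- minus 10p-HFSCs (log2(FPKM + 1) scale, vertical axis) of the tested genes within 1 Mb of Dnmt3a, against their distance from it in kb. Error bars are limma standard errors; the 14 neighbours lie between -1.22 and 0.67, and Dnmt3a, in red, lies at -1.89.

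The maintenance genes copy methylation behind the replication fork. Dnmt1 (GRCm38, chr9:20907209-20959888, reverse strand) had FPKM values of 33.4 and 21.8 in 10p-HFSCs, against 20.9 and 22.4 in 48p-HFSCs. The groups overlapped, and the log2 difference was -0.31 (standard error 0.29) with a limma adjusted p of 0.48. Most of the spread was between the 10p replicates, which differed 1.53-fold. Dnmt1 made up between 85.9% and 92.7% of the summed FPKM of the catalytic methyltransferases in every library.

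Uhrf1 (chr17:56303321-56323486, forward strand), which binds hemimethylated CpG pairs and recruits DNMT1, was the most abundant of the 10 genes by mean FPKM in both groups. It was at 43.1 and 41.5 in 10p-HFSCs, against 18.2 and 34.4 in 48p-HFSCs. Both late values were below the early ones, but they were far apart, and the log2 difference of -0.73 was not called (standard error 0.35, limma adjusted p = 0.19). Without replicate 2 of 48p-HFSCs the difference was -1.17, and without replicate 1 it was -0.29.

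Hells (chr19:38930915-38971051, forward strand) encodes a chromatin remodeler that opens nucleosomal DNA to methyltransferases. Its FPKM fell from 42.3 and 23.3 in 10p-HFSCs to 13.5 and 10.6 in 48p-HFSCs, with no overlap. The means were 32.8 ± 13.4 (SD, n = 2) and 12.0 ± 2.00 (SD, n = 2), and the log2 difference was -1.32 (standard error 0.35, limma adjusted p = 0.048). The 10p replicates differed 1.81-fold. Without replicate 1 of 10p-HFSCs the difference was -0.91, short of the limit of 1 in size. The call was also lost without the filter (limma adjusted p = 0.092), with rescaling to the same FPKM sum (0.063) and under 3 other settings. Relative to Dnmt1, Hells had ratios of 1.27 and 1.07 in 10p-HFSCs and of 0.644 and 0.475 in 48p-HFSCs, again without overlap.

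Since the maintenance genes are expressed with DNA replication, they were set beside 15 proliferation genes. Of these, 7 were called lower and 0 higher by limma, 9 having an unadjusted p under 0.05 in either direction, and the median log2 difference was -0.97. Over all 11018 tested genes, 9.15% were called lower and 4118 had an unadjusted p under 0.05 by limma. The calls among the proliferation genes were in Mcm2, Mcm3, Mcm4, Mcm5, Mcm7, Cdc6 and Tyms, which supplies thymidylate. Mcm4 and Mcm5, subunits of the replicative helicase, fell by 2.27 and 1.97 on the log2 scale, and Mcm7 fell by 1.56 (limma adjusted p = 0.011, 0.0051 and 0.019). Cdc6, which loads the helicase, fell by 1.46 (limma adjusted p = 0.017), and was not called without the filter (0.051). The mitotic genes Ccnb1, Cdk1 and Top2a were not called, with log2 differences of -0.13, 0.57 and -0.35. By cell counts and BrdU uptake, the paper reports that late cultures kept or raised their proliferation. The RNA values given here are thus not a measure of growth. The mean of the 6 Mcm genes on the log2(FPKM + 1) scale was 5.60 and 5.23 in 10p-HFSCs, against 4.08 and 4.02 in 48p-HFSCs. Measured from that mean, Hells lay at -0.17 and -0.62 in 10p-HFSCs, against -0.23 and -0.48 in 48p-HFSCs, so the groups overlapped. Dnmt1 lay at -0.50 and -0.72 in 10p-HFSCs, against 0.37 and 0.53 in 48p-HFSCs, higher in each late library than in either early one. Uhrf1 lay at -0.14 and 0.18, and at 0.19 and 1.13. These distances depend on the reference, since most of the called proliferation genes were Mcm genes. The mean of all 15 proliferation genes fell less, from 5.52 and 5.30 in 10p-HFSCs to 4.44 and 4.74 in 48p-HFSCs.

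The promoters of these 3 maintenance genes share a letter pattern that the choice of genes did not use. The E2F pattern, searched as TTTGGCGC, TTTGCCGC, TTTCGCGC and TTTCCCGC on both strands, is known from genes of the start of DNA replication. It occurred in 2.26% of the 32851 promoter windows and in at least 1 window of 2.605% of 27025 genes. Among the writers and erasers it occurred in 3 of 17 windows, 1 each of Dnmt1, Uhrf1 and Hells, and among the proliferation genes in 6 of the 12 that had a window. The 3 windows (RefSeq, GRCm38.p6, 250 bases before and 50 from the start, written 5′ to 3′ along the gene) are shown with the pattern in capitals. Dnmt1 is on the reverse strand, and Uhrf1 and Hells are on the forward strand.
Dnmt1 chr9:20952574-20952873: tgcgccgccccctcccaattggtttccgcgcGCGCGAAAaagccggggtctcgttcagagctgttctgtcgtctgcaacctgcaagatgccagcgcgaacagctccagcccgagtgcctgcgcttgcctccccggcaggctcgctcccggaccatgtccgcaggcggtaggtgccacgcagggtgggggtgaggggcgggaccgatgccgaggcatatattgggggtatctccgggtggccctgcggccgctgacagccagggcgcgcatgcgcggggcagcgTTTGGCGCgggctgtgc
Uhrf1 chr17:56304063-56304362: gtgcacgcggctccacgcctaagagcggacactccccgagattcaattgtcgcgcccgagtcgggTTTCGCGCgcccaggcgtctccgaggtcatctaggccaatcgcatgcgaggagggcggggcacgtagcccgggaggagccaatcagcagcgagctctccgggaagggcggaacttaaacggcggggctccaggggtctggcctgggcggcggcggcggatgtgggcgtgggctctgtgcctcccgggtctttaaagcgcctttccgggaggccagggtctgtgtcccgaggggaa
Hells chr19:38930740-38931039: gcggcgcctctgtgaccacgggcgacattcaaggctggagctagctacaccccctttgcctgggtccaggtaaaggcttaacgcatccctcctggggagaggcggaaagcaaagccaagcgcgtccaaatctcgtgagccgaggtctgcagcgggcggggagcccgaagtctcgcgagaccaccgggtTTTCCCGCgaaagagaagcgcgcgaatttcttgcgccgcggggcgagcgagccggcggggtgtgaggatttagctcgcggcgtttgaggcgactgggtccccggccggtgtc
Dnmt1 had 2 matches and the others 1 each, and each of the patterns holds a CpG pair. The windows of Dnmt1, Uhrf1 and Hells held 33, 33 and 34 CpG pairs, against a median of 7 over all windows. The share over all windows is thus not that of windows rich in CpG, which was not computed. Only Hells of the 3 was called, so genes with the pattern did not all pass the test. A match of letters is a description and does not show binding.

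Among the erasers, Tet3 supplied nearly all of the TET expression listed. It made up at least 99.5% of the summed FPKM of the TET genes in each library. Tet1 (chr10:62804570-62908996, reverse strand) was at 0.0639 and 0.0446 in 10p-HFSCs, against 0.00855 and 0 in 48p-HFSCs. Tet2 (chr3:133463679-133545139, reverse strand) was listed at 0 in all 4 libraries, as were 7667 symbols in all, while each of 12 subunits of RNA polymerase II was above an FPKM of 11 in every library. Neither Tet1 nor Tet2 was tested. The sources do not say whether Tet2 could be quantified, so its 0 may not mean absent RNA.

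Tet3 (chr6:83362373-83459084, reverse strand) was at 13.2 and 9.65 in 10p-HFSCs, against 6.75 and 1.57 in 48p-HFSCs. The late libraries lay below the early ones but differed 4.31-fold between themselves, and the log2 difference of -1.46 was not called (standard error 0.55, limma adjusted p = 0.11). The value rested on replicate 2 of 48p-HFSCs, with -0.67 without it and -2.26 without replicate 1. The summed FPKM of Dnmt1, Dnmt3a and Dnmt3b was 2.85 and 2.61 times that of the TET genes in 10p-HFSCs, against 3.61 and 15.4 times in 48p-HFSCs. The last ratio stands apart, in the library where Tet3 was at 1.57.

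Tdg (chr10:82629828-82650799, forward strand), the glycosylase that removes oxidised methylcytosine, was at 11.1 and 5.999 in 10p-HFSCs, against 2.70 and 2.86 in 48p-HFSCs. The groups did not overlap, and the log2 difference was -1.28 (standard error 0.35), just short of the threshold (limma adjusted p = 0.051). Tdg had a difference of -1.25 without replicate 1 of 48p-HFSCs and of -1.31 without replicate 2. It had one of -0.89 without replicate 1 of 10p-HFSCs and of -1.67 without replicate 2. Its exons share 367 bases with Glt8d2 on the opposite strand, at FPKM values between 0.181 and 1.56. Tdg also has near-identical copies. In the annotation, Tdg-ps matches it over 2968 bases at 98.7% identity and Gm5597 over 1193 bases at 99.3%, and neither has an FPKM value. Gm9855 matches it over 1194 bases at 99.2% identity and had higher FPKM values than Tdg, at 47.4 and 52.4 in 10p-HFSCs, against 31.1 and 36.2 in 48p-HFSCs. Since reads may have been split between them, the level of Tdg is uncertain. The log2 difference of Gm9855 was -0.56 (limma adjusted p = 0.16), and the summed FPKM of Tdg and Gm9855 was 58.4 in each 10p library against 33.8 and 39.0. That sum leaves out the copies without an FPKM value. Uhrf1 also matches a gene of another symbol, Gm5648, over 1590 bases at 98.3% identity, which is not used here.

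By mean FPKM, the order in 10p-HFSCs was Uhrf1, Hells, Dnmt1, Tet3, Tdg, Dnmt3a, Dnmt3b, Dnmt3l, Tet1 and Tet2. The range of Hells overlapped those of Uhrf1 and Dnmt1, which were apart from each other, the ranges of Tet3 and Tdg overlapped, and the others were apart from their neighbours. In 48p-HFSCs the order was Uhrf1, Dnmt1, Hells, Tet3, Tdg, Dnmt3b, Dnmt3l, Dnmt3a, Tet1 and Tet2. There the ranges of Uhrf1 and Dnmt1 overlapped, as did those of Tet3 with Tdg, Tdg with Dnmt3b, and Tet1 with Tet2. Dnmt3a passed from above Dnmt3b to below Dnmt3l, with ranges apart from both.

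**Figure D3:**
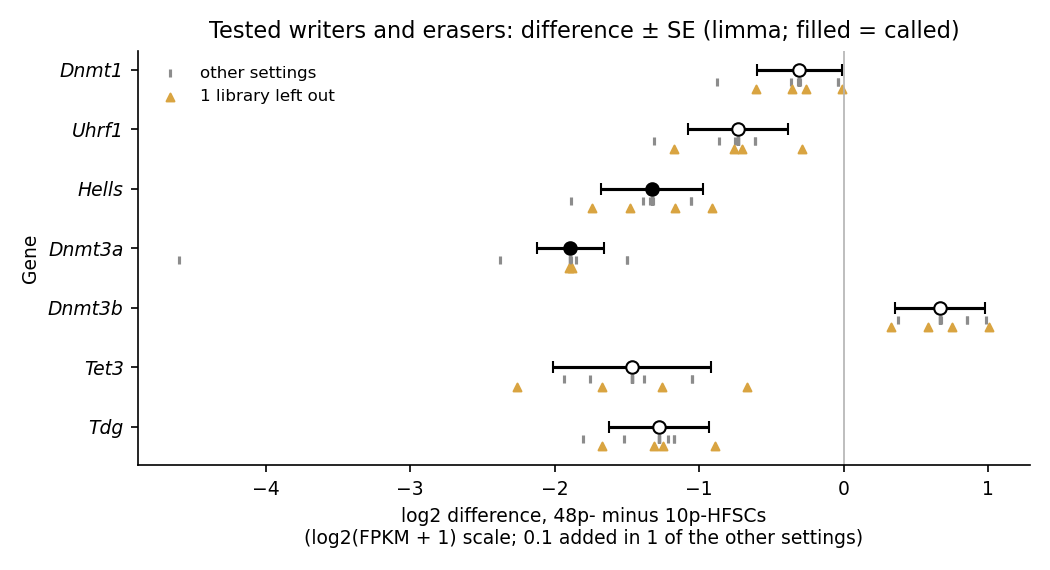
Log2 difference of 48p- minus 10p-HFSCs (horizontal axis) for the 7 tested writers and erasers. Large points with bars are the difference and its limma standard error on the log2(FPKM + 1) scale, filled where called; grey ticks are other settings (the tick of Dnmt3a at -4.60 has a pseudocount of 0.1) and triangles have 1 library left out. Dnmt3a stayed at or below -1.499, and the triangles of Tet3 spread from -2.26 to -0.67.

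The partners of these enzymes were examined as 8 lists of 93 genes. As the background for each list, 10.8% of all 11018 tested genes were called higher and 9.15% lower. Of these 11018, 4118 had an unadjusted p under 0.05 by limma. Of the 93 list genes, 71 were tested, with 3 called higher and 16 lower. Without the filter 9 of these 19 were called, namely Nsd1, Mbd1, Zbtb4, Uhrf2, Ung, Mcm2, Mcm4, Mcm5 and Mcm7. Of 8 genes grouped as methyl-CpG readers, a class named for binding methylated DNA, all were tested. By limma, 3 were called lower and 0 higher, and the median log2 difference was -1.57. Unadjusted p-values under 0.05 were found for 6 of the 8. Uhrf2, the paralog of Uhrf1, was at 5.15 and 4.28 in 10p-HFSCs and was listed at 0 in both 48p libraries (limma adjusted p = 0.0020). Zbtb4, a zinc finger protein that binds methylated CpG, went from 7.28 and 7.05 to 0.0155 and 0.0137 (limma adjusted p = 0.0012). Mbd1, a methyl-CpG binding domain protein, went from 7.54 and 5.72 to 0 and 0.0848 (limma adjusted p = 0.0017). Like Dnmt3a, these 3 genes entered the test through their 10p values alone, and they were also called lower without the filter. The reader Mbd2 was at 38.4 and 41.0 against 48.1 and 71.7 and was not called.

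Base excision repair, which completes active demethylation, was the only list with calls in both directions. Of 10 tested genes, 3 rose and 1 fell. Gadd45a and Gadd45b, stress-induced adaptors that have been linked to demethylation, were at 9.09 and 9.35, and at 26.7 and 29.1, in 10p-HFSCs. In 48p-HFSCs Gadd45a was at 51.7 and 257 and Gadd45b at 85.3 and 406, so that the late replicates of both genes differed by several-fold although all lay above the early ones. Their log2 differences were 3.51 and 2.70 (limma adjusted p = 0.023 and 0.045), and neither was called without the filter (0.067 and 0.11). Of the uracil glycosylases, Ung fell by 1.89 on the log2 scale (limma adjusted p = 0.0092) and Smug1, which also removes 5-hydroxymethyluracil, rose by 1.12 (limma adjusted p = 0.036), the latter with 0.63 and no call when libraries were rescaled to the same FPKM sum (0.59). Mbd4, a glycosylase for mismatches at CpG pairs, had a log2 difference of -0.01.

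Methyl donor supply had 3 of 12 tested genes lower and 0 higher, with a median of -0.98, and 6 unadjusted p-values under 0.05. Ahcy, which clears the methyltransferase inhibitor S-adenosylhomocysteine, went from 77.0 and 60.3 to 28.3 and 34.0. Shmt1, a source of one-carbon units, went from 27.4 and 17.2 to 9.44 and 6.01, and Gnmt, which consumes S-adenosylmethionine, from 6.60 and 6.01 to 0.640 and 1.77 (limma adjusted p = 0.037, 0.041 and 0.018). Mat2a, which makes S-adenosylmethionine, was at 56.7 and 56.3 in 10p-HFSCs, against 44.4 and 17.8 in 48p-HFSCs and was not called.

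Among 6 tested maintenance partners, 1 was called, lower. Pcna, the replication clamp that binds DNMT1, fell from 224 and 172 to 95.7 and 77.0 (log2 difference -1.18, limma adjusted p = 0.046), and was not called without the filter (0.064). Among 13 tested chromatin factors of de novo methylation, 1 was called, lower, and the median was -0.21. Nsd1, a histone H3 lysine 36 methyltransferase whose mark recruits DNMT3A, fell from 3.38 and 2.85 to 0.816 and 0.366 (log2 difference -1.38, limma adjusted p = 0.019), and it too passed the filter through its 10p values alone. Of 7 tested TET cofactors and regulators, 0 were called by limma, with 1 unadjusted p under 0.05, and the median was -0.43.

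**Figure D4:**
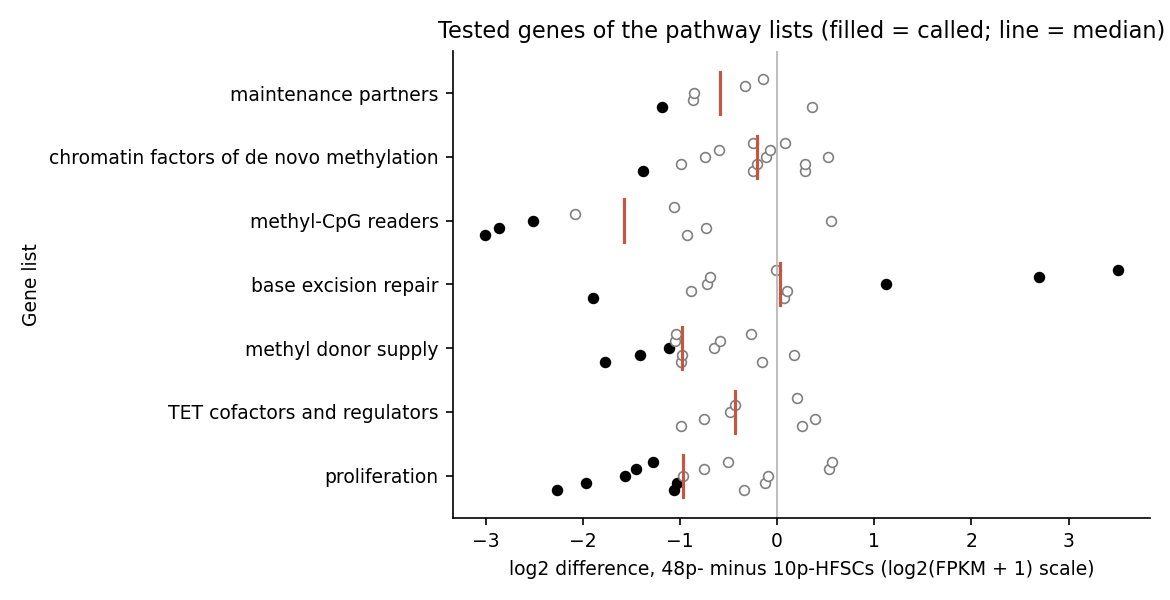
Log2 difference of 48p- minus 10p-HFSCs (log2(FPKM + 1) scale, horizontal axis) of each tested gene in 7 of the lists (vertical axis). Filled points were called by limma and red lines are list medians; the 3 readers furthest to the left are Zbtb4, Mbd1 and Uhrf2, and the 2 points furthest to the right are Gadd45a and Gadd45b.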

How the data were processed

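RNA libraries were made with a stranded mRNA kit and read from a single end. Per the labels' processing notes, reads were mapped to mm10 with TopHat2 2.1.1, Bowtie2 2.2.8 and SAMtools 0.1.18, with Cuffdiff 2.2.1 listed. The paper's methods name Cufflinks for the FPKM values and other versions of Bowtie2 and SAMtools. The authors deposited FPKM values, 1 per gene symbol and library. The annotation, strand setting and handling of multiply mapped reads are not given in the sources used here, so FPKM of genes with near copies or overlapping exons is uncertain.

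Groups were taken from the sample titles. FPKM was tested on the log2(FPKM + 1) scale with limma 3.58.1 in R 4.3.3 (variance trend, 4 libraries, no block), for genes reaching an FPKM of 1 in 2 or more libraries, with Benjamini-Hochberg adjustment over all genes tested. When tested on simulated data, the fit missed nearly all of the smaller changes. Far fewer genes changed in that simulation than were called here, and spreads were shuffled between genes, so its rate of misses does not carry over. Genes that were not called may still differ. The count test of the study was not used, since FPKM values are not counts. Gene positions and longest transcripts came from GENCODE M21 (GRCm38, the assembly of mm10), and promoter windows from RefSeq (GRCm38.p6); all 10 writers and erasers matched both. Nsd2 and Nsd3 were found under the symbols Whsc1 and Whsc1l1. Near copies were transcripts of other genes with at least 95% identity over at least 200 bases (blastn 2.17.0). Relative depth is the most common ratio between FPKM values under 0.3. Other computations used Python 3.11.15, pandas 2.3.3 and numpy 2.4.6.

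The genes and lists were chosen with earlier results of these data known. Named genes were the 10 writers and erasers, of each list at most the 4 called genes with the largest difference, Pcna, and germline genes above an FPKM of 1. Mbd2, Mbd4, Mat2a, Mcm2, Mcm3, Tyms, Ccnb1, Cdk1, Top2a, Dazl, Sycp3, Rhox5, Gm9855, the neighbours of Dnmt3a and single cell type markers were named after their values were seen. Alternatives were another pseudocount, other filters, 3 scalings, a constant variance prior, no fold limit, the replicate block, a length correction (natural spline, 4 degrees of freedom), both together, leaving out each library, and the ratio of means.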

Additional observations from a re-analysis of the deposited data

How the results depend on the processing

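All 7 tested writers and erasers kept the sign of their difference under every alternative that gave a value. For Dnmt3a this was required wherever a filter applied, since it passed through its 10p values alone. Without the filter, where either sign was possible, it was also called lower (limma adjusted p = 0.011). Dnmt3a was called lower in the 13 alternatives with a test, with log2 differences on the log2(FPKM + pseudocount) scale from -4.60 to -1.499 and adjusted p from 0.00037 to 0.013. Without either 10p library it did not reach an FPKM of 1 in 2 libraries and gave no value. Hells was called in 9 of 15 alternatives, Tdg in 5, Tet3 in 3, Dnmt3b and Uhrf1 in 1 each, and Dnmt1 in 0 (adjusted p from 0.31 to 0.996). The number of writers and erasers called lower, 2 as reported, was 1 (Dnmt3a) with a pseudocount of 0.1, without the filter, with a mean FPKM of at least 1, with rescaling to the same FPKM sum and with a constant variance prior. All genes called lower numbered 1008 as reported and 637 without the filter, and those called higher 1189 and 616 with rescaling to the same sum. That rescaling moved the median log2 difference of all genes to -0.56, and relative to it Dnmt3a was at -1.81, Hells at -1.32 and Dnmt1 at -0.31. Called genes of the 8 lists numbered 19 as reported and 9 without the filter. With 1 library left out, the lone library of a group is assumed to vary like the other group. Calls then ranged from 611 to 1609 higher and 217 to 2131 lower over all genes, from 0 to 1 higher and 0 to 4 lower among writers and erasers, and from 5 to 32 in the lists. The fewest came without replicate 1 of 10p-HFSCs (611 and 217, with 0 writers and erasers) and the most without replicate 1 of 48p-HFSCs (1609 and 2131, with Dnmt3a, Hells, Tdg and Tet3 lower).

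The labels number the libraries 1 and 2 in both groups. Across genes, libraries with the same number deviated together from the means of their groups (r = 0.408), but with 2 pairs and no stated batch the libraries share only a number. With the replicate block, 4 writers and erasers were called lower, Dnmt3a, Hells, Tdg and Tet3 (adjusted p = 0.00037, 0.0023, 0.0061 and 0.0038), and over all genes 1613 were called higher and 1497 lower. With the block and the length correction together 4 were called lower, and Dnmt3b, at 0.85 with an adjusted p of 0.039, stayed under the fold limit. The length correction alone moved Dnmt1 to -0.04 and Tet3 to -1.05. Low values are least precise in replicate 2 of 48p-HFSCs, the library of lowest relative depth.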

Other observations

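Genes of the germline whose promoters are known to be silenced by DNA methylation in somatic cells were examined as a list chosen by hand. Of its 14 genes, 0 passed the filter on low FPKM, 6 were listed at 0 throughout, and their summed FPKM was 2.46 and 2.40 in 10p-HFSCs, against 0.808 and 0.791 in 48p-HFSCs. Sycp1, a component of the synaptonemal complex, was the only one above an FPKM of 1 in any library, at 1.13 and 0.739 in 10p-HFSCs, against 0.693 and 0.485 in 48p-HFSCs. Dazl, an RNA-binding protein of germ cells, was at 0.686 and 0.579 in 10p-HFSCs and Sycp3 at 0.638 and 0.965, and both were listed at 0 in both 48p libraries. None of the 14 was tested. Rhox5, a homeobox gene of the germline that is also known to be silenced by methylation, is not in the list and was named after its values were seen. It was at 0.736 and 0.685 in 10p-HFSCs and rose to 1491 and 1770 in 48p-HFSCs (log2 difference 9.89, limma adjusted p = 0.00014), having passed the filter through its 48p values alone, so the low values of the list do not hold for germline genes in general. Methylation itself was not measured in these samples.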
